A study of Rana omeimontis with 6 samples.

Results

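The enzymes that attach ubiquitin to proteins and remove it were examined in liver RNA of tadpoles of the frog Rana omeimontis, sampled around the larval stage at which fat builds up. They were chosen by the protein description of each transcript cluster, here called a feature: the first entry had to contain E3 ubiquitin, ubiquitin-conjugating enzyme, ubiquitin carboxyl-terminal hydrolase, F-box, cullin or ubiquitin-like modifier-activating, and descriptions with the word proteasome were left out. Of 121726 features, 695 met this rule, and 279 of them passed a filter of at least 1 FPKM (a fragment level corrected for the length of the transcript and the size of the library) in at least 3 of the 6 libraries, among 40548 features that passed it in all. The 279 members carried 179 distinct protein names and fell into 3 features of E1 enzymes, 28 of E2 enzymes, 161 of E3 ligases, 41 of F-box proteins, 15 of cullins and 31 of deubiquitinases. The other 416 were below the filter, most of them E3 ligases, of which 161 of 411 were kept, and F-box proteins, of which 41 of 115 were kept. Around the filter, 38 kept members had a third-highest value of 1 to 1.2 FPKM and 38 features left out had one of 0.8 to 1 FPKM. Among proteins to be looked up whatever their result, 53 were measured and 10 were below the filter, including FBXO32, ITCH, USP2 and CUL7. Another 14, including UBA1, UBE2N and MDM2, had no description matched by this rule and were not analysed as members. RNF145, among these 14, was tested with the other genes of the pathway.

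The study asks, as far as its labels go, how the build-up of fat in the liver relates to growth and to the use of lipid as fuel. It holds 3 liver libraries from tadpoles after ontogenetic fat accumulation and 3 from tadpoles before it, here called after and before. Genotype, age, sex and feeding are not given in the labels, and no agent or allele separates the groups. Whether each library holds 1 animal, several pooled or a repeat of the same is not in the labels. The p-values therefore set the difference between the stages only against the spread between these libraries, which may be technical.

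Ubiquitin is a small protein that is coupled to other proteins in a relay. An E1 enzyme activates it, an E2 enzyme carries it, and an E3 ligase chooses the substrate and helps the transfer, after which chains of ubiquitin commonly send the substrate to the proteasome. Cullin-RING ligases are assembled from a cullin scaffold, the RING protein RBX1 that binds the E2, and an adaptor with a substrate receptor such as an F-box protein, and they are switched on when the ubiquitin-like protein NEDD8 is attached to the cullin. Deubiquitinases take ubiquitin off again. In the mammalian liver such enzymes set the lifetime of proteins of sterol synthesis, of lipoprotein receptors and of misfolded proteins of the endoplasmic reticulum.

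The libraries were alike in summed FPKM, which ran between 1358665 and 1382059 after and between 1396950 and 1442121 before, and the number of reads behind them is unknown. Before replicate 3 stood apart, with 49148 features at 1 FPKM or more against 37208 to 42276 in the other 5, and it held the highest value of 109 of the 279 members. Of 9 hepatocyte markers 8 had a feature, with a summed FPKM of 11527 to 12900 after and 7124 to 8627 before. By the test used below, 3 of their 11 tested features were higher after and 0 lower, where 4.64% of all features were higher. Of these 3, transthyretin was at 1106 to 1387 FPKM after and 41.9 to 151 before, and serum albumin at 353 to 539 after and 15.0 to 69.8 before. The other was the less abundant apolipoprotein A-I feature, at 69.2 to 113 after and 2.45 to 13.5 before. The more abundant apolipoprotein A-I feature overlapped between the stages. Summed over their features, fibrinogen alpha and gamma, serotransferrin, apolipoprotein B-100 and alpha-2-macroglobulin overlapped as well. Transcripts of pancreatic digestive enzymes were also abundant, at 12.5% to 16.0% of the summed FPKM after and 10.9% to 18.4% before. Markers of leukocytes summed to 48.4 to 82.2 FPKM after and 69.2 to 109 before, and hemoglobin features to 11857 to 12403 after and 7854 to 9940 before. With several tissues in the RNA, fewer cells of a type and less RNA per cell cannot be told apart, and the part of the marker differences in the results below was not tested.

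After fat accumulation 4 members were higher and 7 were lower (limma on log2(FPKM + 1), Benjamini-Hochberg adjusted p under 0.05 over all features). Higher were UCHL5, a deubiquitinase, and the E3 ligase features RNF185, RNF139 and RBX1. Lower were CHFR, PELI1, MKRN2, MKRN1 and RNF180 among the E3 ligases, the F-box protein FBXL5 and the deubiquitinase CYLD. The share called was 3.94% of the members, against 8.64% of all features tested and 9.69% of the 14725 tested features with a protein description. By direction, 1.43% of members were higher, against 4.64% of all features and 6.31% of the described ones, and 2.51% were lower, against 4.0% and 3.38%. At an unadjusted p under 0.05 there were 70 members (25.1%), against 26.6% of all features and 29.7% of the described ones. The 3 libraries of each stage did not overlap in 41 members that were higher and 61 that were lower after fat accumulation, where 15.7% and 16.8% of all features tested showed this, and 20.6% and 18.3% of the described ones. The median difference, after minus before, was -0.10 on the log2 scale over the members and -0.08 over all features, and without before replicate 3 it was -0.02 over the members and 0.0025 over all features. Differences are of log2(FPKM + 1), so that the change of low features is understated, and 196 of the 279 members (70.3%) averaged under 5 FPKM. A member listed at or above 1 FPKM in 1 stage only had to differ between the stages to be kept, which applied to 6 members through the libraries after and to 5 through those before, CYLD and RNF180 among them.

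**Figure D1:**
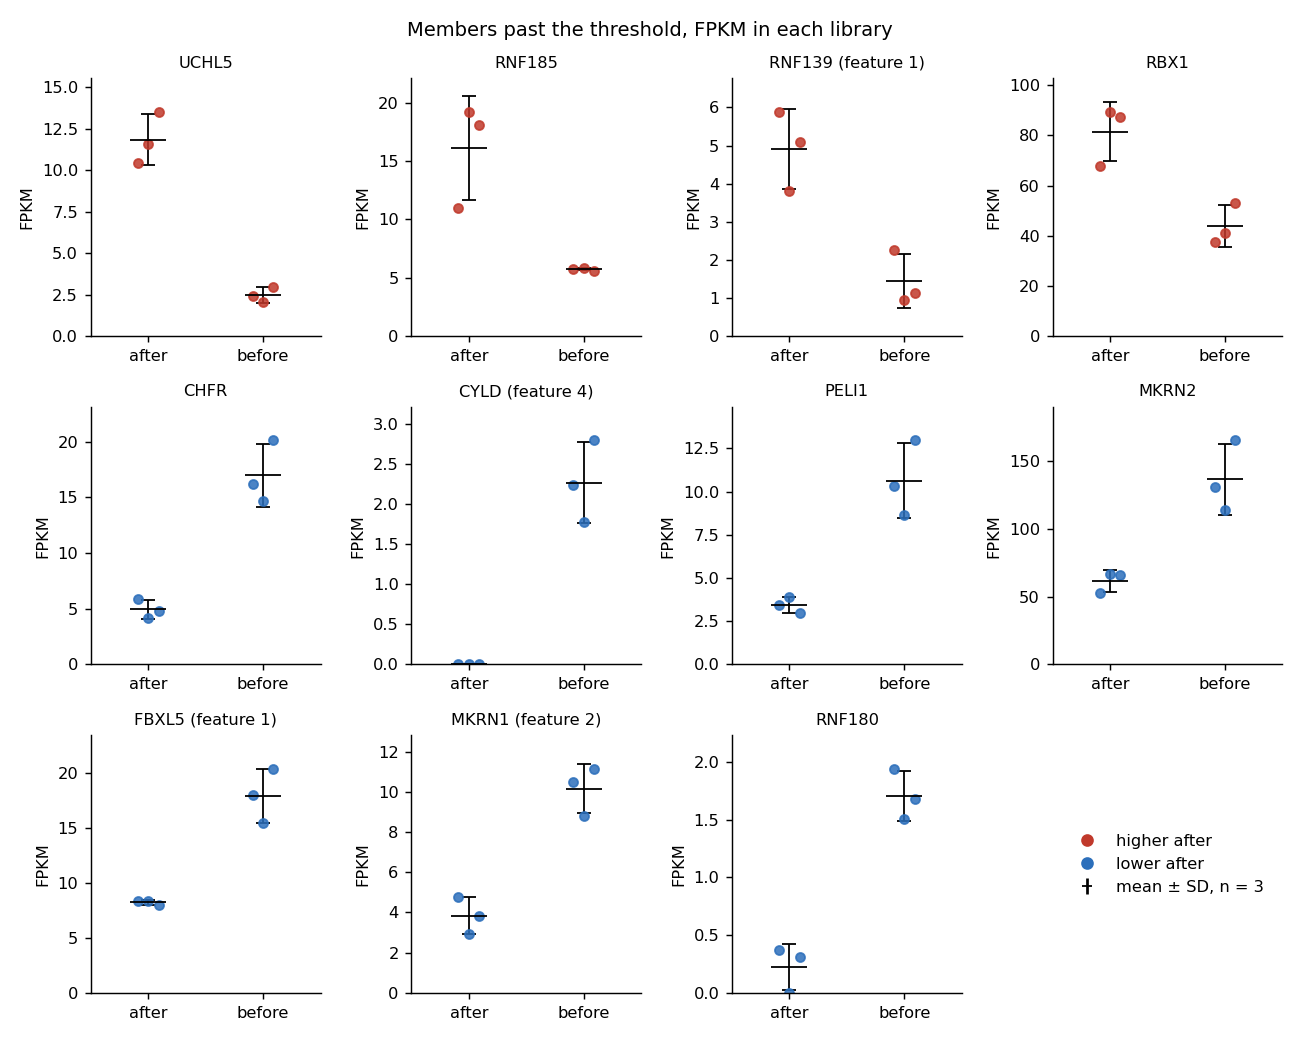
FPKM (vertical axes, each starting at 0) of the 11 members past the threshold in the 3 libraries after and the 3 before fat accumulation. Points are libraries and bars the mean ± SD (n = 3), and in none of the 11 panels do the stages overlap.

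The split between higher and lower members depended on the scaling of the libraries. With median-of-ratios factors 12 members were higher and 10 lower, and with quantile normalization 12 were higher and 11 lower. Rescaling after leaving out the pancreatic enzymes gave 7 higher and 8 lower. The share called of all features moved with them, to 11.7%, 11.3% and 9.73% with these 3 scalings. All 11 members called as reported were among those called with the first and the last of these scalings, and 10 of them with quantile normalization, which lost RNF180. With 1 library left out the calls were fewer: 6 members were past the threshold when after replicate 1 was dropped, 1 when it was after replicate 2 and 2 when it was after replicate 3. Dropping before replicate 1 left 1 member, dropping before replicate 2 left 6 and dropping before replicate 3 left 4. Over all features the share called in these fits was 1.7% to 4.6%. UCHL5 was called in each of these 6 fits, with a highest adjusted p of 0.0466, and CHFR and CYLD in 3 of them. PELI1, MKRN2, MKRN1 and RNF185 were each called in 1, and RNF139, RBX1, FBXL5 and RNF180 in none. The sign of the difference was the same in every one of these fits for all 11.

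**Figure D2:**
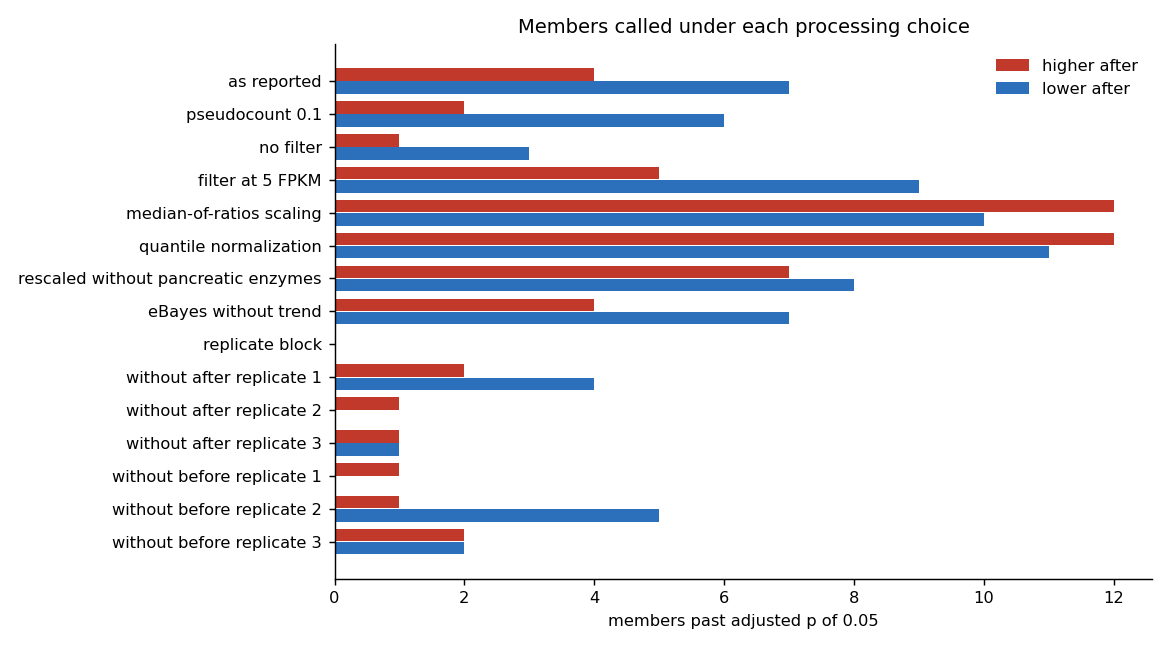
Number of members past an adjusted p of 0.05 (horizontal axis) that were higher or lower after fat accumulation, in the fit as reported and under each other choice. Both scalings that equalise the libraries gave 12 higher members against 4 as reported, and every fit without 1 library gave 6 calls or fewer.

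The classes differed in level and in the balance of their signs, which no test compared. E2 enzymes were the most abundant class, with a median over features of 7.07 FPKM (mean of 6 libraries), against 3.13 for E1 enzymes, 2.77 for deubiquitinases, 2.55 for E3 ligases, 2.0 for cullins and 1.82 for F-box proteins. The median stage difference was 0.45 for the 3 E1 features, 0.09 for the E2 enzymes, of which 19 of 28 were positive, and 0.16 for the cullins, of which 9 of 15 were positive. It was -0.18 for the E3 ligases, of which 98 of 161 were negative, -0.17 for the F-box proteins, of which 25 of 41 were negative, and -0.10 for the deubiquitinases, of which 20 of 31 were negative. The cullin class was matched by that word. It therefore includes CAND1, a cullin-associated protein (0.37), and CACUL1, a protein described by a cullin domain (-0.30). Of all 40548 features tested, 21964 were negative and 18584 positive. The signs count features, and some E3 names had many. TRIM25-like had 14 of 19 negative, DTX3L 6 of 9, MYCBP2 7 of 8 and HUWE1 2 of 5, so the E3 signs are not independent. Over the other processing choices and with any library left out, these medians ran from 0.38 to 0.70 for the E1 enzymes, 0.09 to 0.21 for the E2 enzymes, 0.10 to 0.37 for the cullins, -0.30 to -0.04 for the E3 ligases, -0.32 to -0.03 for the F-box proteins and -0.20 to 0.02 for the deubiquitinases, the last with a positive value without before replicate 3. Without before replicate 2, 15 of the 28 E2 features were positive. Summed over their features, E3 ligases reached 804 ± 82.2 FPKM after and 960.1 ± 168 before (SD, n = 3 each), F-box proteins 131 ± 0.812 after and 163 ± 23.1 before, and E2 enzymes 445 ± 18.6 after and 422 ± 56.8 before. The calls were 8 of 161 E3 ligases (4.97%), 2 of 31 deubiquitinases (6.45%) and 1 of 41 F-box proteins (2.44%), where 8.64% of all features were called. None of the E1 enzymes, E2 enzymes and cullins was called. In these classes 1, 7 and 2 features of 3, 28 and 15 had an unadjusted p under 0.05, where 26.6% of all features had one.

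**Figure D3:**
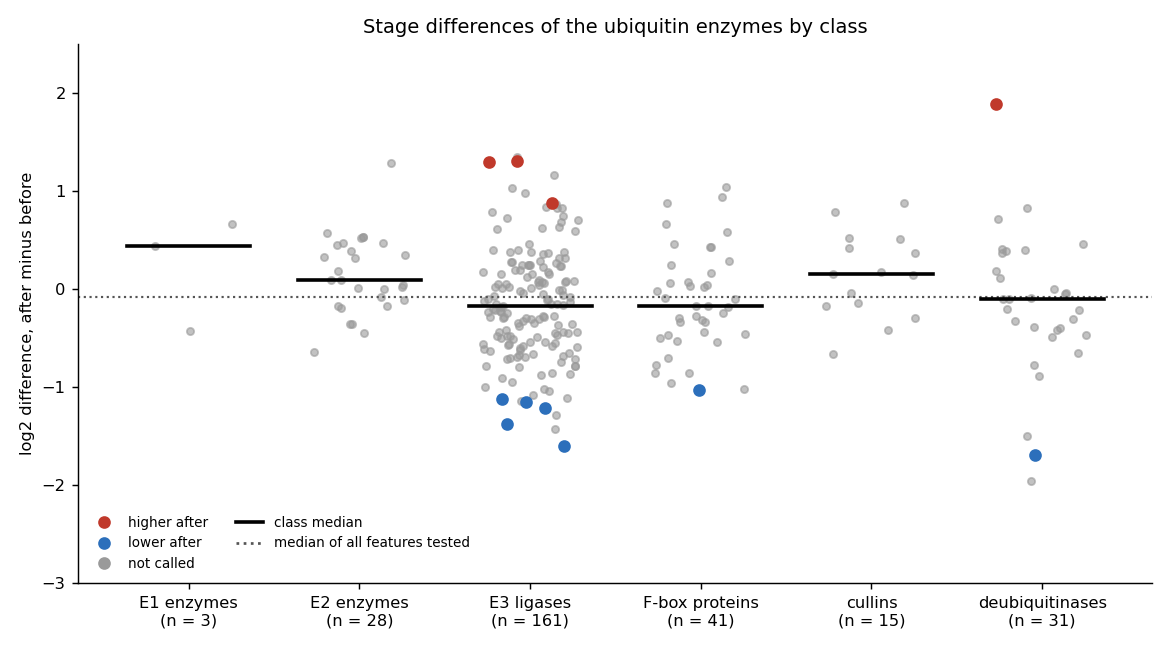
Log2 difference, after minus before, of each of the 279 members (points) by enzyme class, with the class median as a bar and the median of all 40548 features tested (-0.08) as a dotted line. The medians of E1 enzymes, E2 enzymes and cullins lie above the dotted line and those of E3 ligases, F-box proteins and deubiquitinases below it. All 11 called members are E3 ligases, F-box proteins or deubiquitinases, which hold 161, 41 and 31 of the members, where 8.64% of all features were called.

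None of the 3 E1 features passed the threshold. UBA6, an activating enzyme for ubiquitin itself, had 1.33, 1.49 and 1.12 FPKM after and 0.93, 0.64 and 0.54 before (0.45 on the log2 scale, limma adjusted p = 0.303). It was kept only through the libraries after, so it had to differ, and its difference is the median of the class. ATG7, which activates the ubiquitin-like proteins of autophagy, lay the other way, with 2.36, 2.39 and 2.68 FPKM after and 3.44, 2.7 and 5.19 before (-0.43, adjusted p = 0.372).

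Among the E2 enzymes, UBE2D4, a broad partner of RING ligases that is named here after its values were seen, had 10.02, 8.33 and 11.1 FPKM after, against 2.12, 3.4 and 5.29 FPKM before. Every library after was above every library before, and with a difference of 1.28 ± 0.307 the adjusted p of 0.0507 missed the threshold. It was past the threshold under 4 alternatives with all libraries, and when its 2 features were summed (11.7 ± 0.46 FPKM after, 5.13 ± 0.817 before, adjusted p = 0.0292). UBE2L3, the E2 that serves HECT and RBR ligases, had 63.3, 75.9 and 68.9 FPKM after and 46.5, 44.2 and 59.8 before (0.47, adjusted p = 0.165). UBE2V1, the inactive partner in making lysine-63 chains, had 53, 48.1 and 49.2 FPKM after and 37.7, 29.7 and 36.01 before (0.53, adjusted p = 0.105). For both the stages did not overlap and the test was not passed. UBE2D2, the most abundant E2 feature, had 73.3, 76.2 and 64.4 FPKM after and 84.5, 80.7 and 111 before, a difference of -0.35 the other way (adjusted p = 0.283); its description came from a human protein, so its name is less certain. UBE2A, a partner of RAD18 in DNA damage tolerance, was close to level, at 37.4 ± 2.89 FPKM after and 36.9 ± 4.22 before (SD, n = 3 each). The E2 enzymes that build chains with the anaphase-promoting complex at mitosis were also close, UBE2C at 8.63 ± 3.9 FPKM after and 8.06 ± 3.7 before, and UBE2S at 5.44 ± 0.426 after and 5.35 ± 1.35 before.

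RBX1, the RING subunit that recruits the E2 to cullin-RING ligases, was higher after fat accumulation. It had 67.9, 89.4 and 87.3 FPKM after and 37.5, 41 and 53.2 FPKM before. The lowest library after stood above the highest before, and the mean was 1.86 times that before (0.88 ± 0.207 on the log2 scale, limma adjusted p = 0.048). The call was lost whichever of the 6 libraries was left out, with adjusted p up to 0.152.

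No cullin passed with it. CUL2, the scaffold of the ligases that use elongins and VHL-type receptors, had 4.39, 3.88 and 4.59 FPKM after and 2.17, 1.29 and 2.26 before, with no overlap (difference 0.88 ± 0.248, adjusted p = 0.0768). It passed with median-of-ratios factors (adjusted p = 0.0404) and with quantile normalization (adjusted p = 0.0390). CUL1, the scaffold of the F-box ligases, had 4.72, 4.83 and 4.55 FPKM after and 1.83, 2.78 and 5.01 before in its more abundant feature (0.51) and a difference of -0.42 in the other. CUL3, the most abundant feature among the cullins, was at 6.25 ± 0.698 FPKM after and 5.56 ± 0.734 before (0.14, adjusted p = 0.716). CAND1, which exchanges the receptors on cullins, had 5.33, 5.29 and 5.36 FPKM after and 3.82, 3.13 and 4.94 before (0.37, adjusted p = 0.369). The second feature of CUL4B, a scaffold of ligases that use DDB1, was lower in every library after, at 1.14 ± 0.42 FPKM after and 2.35 ± 0.276 before (-0.66, adjusted p = 0.166).

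The genes around the cullins were taken from a list of partners outside the members: NEDD8 enzymes, DCN1-like proteins, the COP9 signalosome, SKP1 and elongins. Of their 24 features 1 was higher, where 4.64% of all features were, and none lower, 17 differences were positive and the median was 0.22, which stayed between 0.15 and 0.30 with other scalings or with any library left out. DCN1-like protein 5, which helps to attach NEDD8 to cullins, was the 1 called, with 5.85, 5.89 and 7.95 FPKM after and 1.53, 0.90 and 2.2 before (1.59 ± 0.283, adjusted p = 0.0235). That call was kept in 1 of the 6 fits without a library and lost without a filter. SKP1, the adaptor between CUL1 and F-box proteins, had 39.3, 39.5 and 42 FPKM after and 27.2, 21 and 32.3 before (0.59, adjusted p = 0.124). The catalytic subunit of the NEDD8-activating enzyme had 5.35, 5.93 and 6.43 FPKM after and 3.26, 3.35 and 3.85 before in its more abundant feature (0.62, adjusted p = 0.115), while the regulatory subunit, at 12.4 ± 0.991 after and 17.2 ± 3.93 before, lay the other way (-0.43). None of the 9 features of the COP9 signalosome, which removes NEDD8 from cullins, was called, and their differences ran from -0.35 to 0.64. The 2 features of DCN1-like protein 4 were negative, at -1.23 and -0.68, and did not pass. The feature at -1.23 was kept only through the libraries before, so it had to differ.

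**Figure D4:**
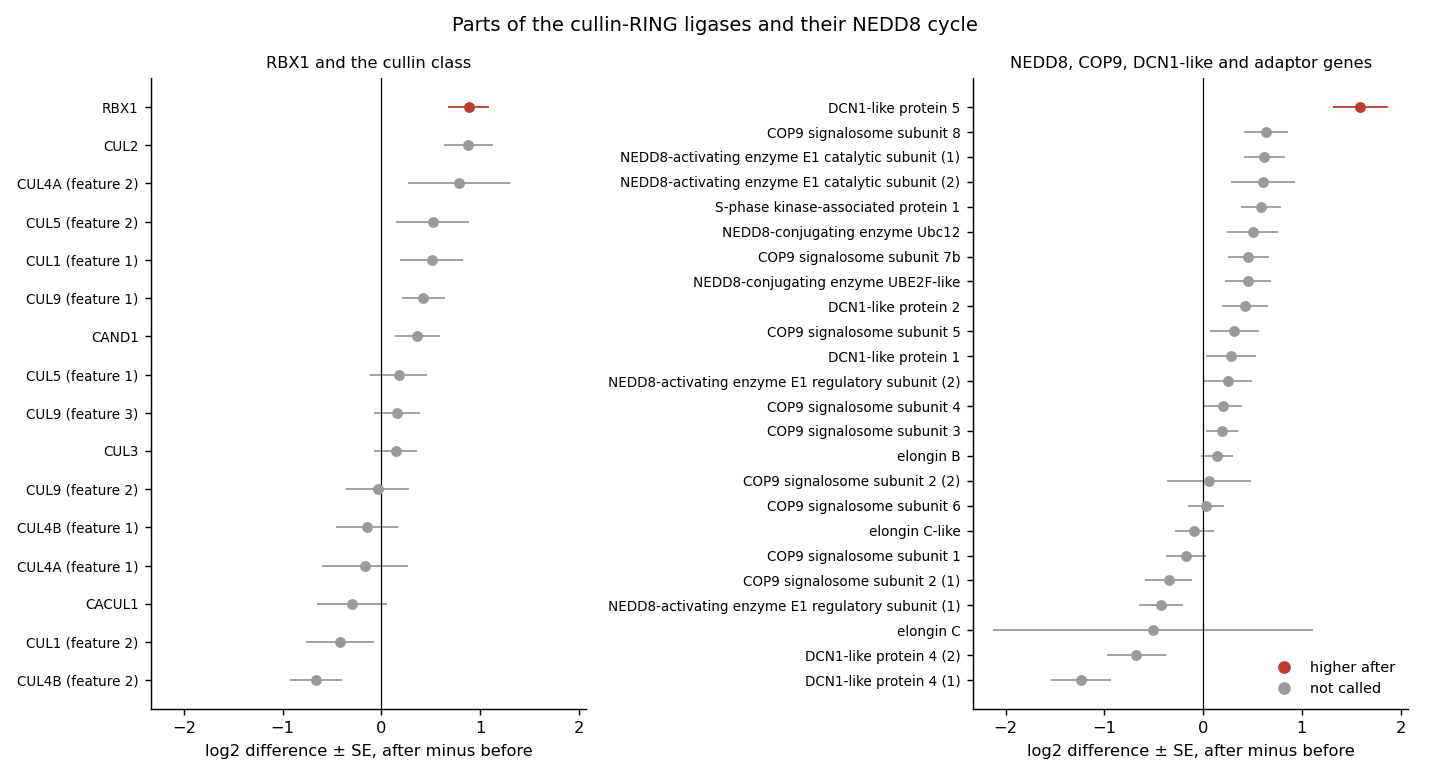
Log2 difference, after minus before, with its SE (horizontal axes) for RBX1 and the 15 features of the cullin class on the left, and for the 24 features of NEDD8, COP9, DCN1-like and adaptor genes on the right. RBX1 and DCN1-like protein 5 are the only points past the threshold, and most of the others lie to the right of 0. Some of these have an SE that reaches 0, such as CUL3, and others, such as CUL2 and SKP1, lie clear of it by more than their SE.

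Among the members, the ligases listed for sterol, lipoprotein receptor and endoplasmic reticulum protein turnover gave 2 higher features of 8 and none lower. The list was chosen with earlier results of these data known, so this count is a description only. Of all features 4.64% were higher. RNF185, a membrane RING ligase that acts in the removal of proteins from the endoplasmic reticulum, had 11, 19.2 and 18.1 FPKM after and 5.72, 5.8 and 5.61 FPKM before. The 3 libraries before were nearly equal, with an SD of 0.0954 FPKM, and all 3 after lay above them, with a mean 2.82 times as high (1.31 ± 0.257, limma adjusted p = 0.0299). RNF139, known as TRC8, a sterol-sensing ligase of the endoplasmic reticulum that acts on HMG-CoA reductase in mammalian cells, had 5.88, 3.8 and 5.08 FPKM after and 2.27, 0.94 and 1.12 before in its more abundant feature (1.30 ± 0.30, adjusted p = 0.0467). Its second feature overlapped between the stages, with 1.61, 4.04 and 2.44 FPKM after and 2.31, 2.96 and 4.68 before (-0.24), and the sum of both was not called, at 7.62 ± 0.194 FPKM after and 4.76 ± 0.963 before (adjusted p = 0.142).

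The other ligases of that group did not pass. RNF145, listed with them, was described as a RING finger protein and was not a member. Its features outside the members differed by 0.13 and -0.15 and were not called (limma adjusted p = 0.787 and 0.745). SYVN1, the main ligase for misfolded proteins of the endoplasmic reticulum, was at 12 ± 1.35 FPKM after and 13.7 ± 3.34 before (-0.15, adjusted p = 0.728). MARCH6, which acts on squalene monooxygenase, was at 5.13 ± 0.46 after and 5.3 ± 0.288 before (-0.04, adjusted p = 0.922), and its 2 means differed by less than either SD. RNF5, the closest relative of RNF185, was at 18 ± 2.4 after and 25.2 ± 6.23 before (-0.45, adjusted p = 0.296). MYLIP, or IDOL, which sends the LDL receptor to degradation, had 1.43, 2.32 and 2.05 FPKM after and 2.85, 3.45 and 4.25 before, lower in every library after (-0.62, adjusted p = 0.179). The E2 enzymes of the same compartment were not called either, UBE2G2 at 28.1 ± 4.47 FPKM after and 31.8 ± 5.74 before, UBE2J1 at 6.6 ± 1.72 after and 4.94 ± 0.397 before, and UBE2J2 at 9.55 ± 1.71 after and 12.5 ± 2.01 before.

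The 5 E3 ligase features that were lower after fat accumulation included the most abundant of the class. MKRN2, a makorin with zinc fingers and a RING domain, had 52.4, 66.7 and 65.7 FPKM after, against 130.3, 114 and 165 FPKM before. Its highest library after was well under the lowest before, and the mean was 0.452 of that before (-1.12 ± 0.201, limma adjusted p = 0.0239). Its relative MKRN1, known to act on p53 and p21 in human cells, had 4 features, all with negative differences, 1 of them kept only through the libraries before. The called one had 4.78, 2.93 and 3.81 FPKM after and 10.51, 8.79 and 11.1 before (-1.22 ± 0.237, adjusted p = 0.0298). The more abundant one had 2.74, 5.79 and 4.0 FPKM after and 9.3, 8.42 and 12.2 before, again without overlap (-1.11 ± 0.292, adjusted p = 0.0634). Summed, the MKRN1 features reached 9.0, 9.35 and 9.97 FPKM after and 23.8, 21.5 and 29.2 before, and the sum was lower (-1.30 ± 0.196, adjusted p = 0.0162). The 4 signs were the same with every other scaling and in 5 of the 6 fits without a library; without before replicate 3, 1 of the 4 was positive.

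CHFR, a ligase of the checkpoint that delays entry into mitosis under stress, had 5.84, 4.19 and 4.8 FPKM after and 16.2, 14.7 and 20.1 FPKM before. The stages lay far apart relative to their spread, with a mean 0.291 of that before (-1.60 ± 0.223, limma adjusted p = 0.0132). PELI1, a pellino ligase of Toll-like and interleukin-1 receptor signalling, had 3.45, 3.89 and 2.99 FPKM after and 10.3, 8.65 and 13 before (-1.38 ± 0.233, adjusted p = 0.021). Leukocyte markers, of which none of 10 features was called, are given above, and their part in the difference of PELI1 was not tested. RNF180, a membrane-anchored RING ligase, was at the edge of detection, with 0.37, 0 and 0.31 FPKM after and 1.94, 1.51 and 1.68 before (-1.15 ± 0.257, adjusted p = 0.0424). It was kept only through the libraries before, and it was not called with a pseudocount of 0.1, without a filter or with quantile normalization.

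The paralogs UHRF1 and UHRF2, named after their values were seen, lay on opposite sides. UHRF1, which holds DNA methylation in place at replication, had 5.02, 2.69 and 3.87 FPKM after and 1.55, 0.56 and 1.44 before in its more abundant feature, and 3.46, 3.44 and 3.9 after and 2.18, 0.52 and 1.59 before in the other. Neither overlapped between the stages, and the differences of 1.16 ± 0.319 and 0.98 ± 0.327 had adjusted p of 0.0718 and 0.113 (limma). UHRF2, which binds modified cytosine, had 5.94, 5.69 and 4.76 FPKM after and 13.3, 9.47 and 10.7 before (-0.90 ± 0.219, adjusted p = 0.0525), and the sum of its 2 features was past the threshold (adjusted p = 0.0481). Among the markers of dividing cells, PCNA, the DNA replication clamp, was higher, at 97.2 to 112 FPKM after and 30.0 to 42.1 before. Summed over the list, of which 6 of 10 markers had a feature, the level was 111 to 134 FPKM after and 40.6 to 59.7 before. Most of that sum was PCNA, and 1 of the 6 tested features was called. CDK1 lay the same way without a call, at 4.76 to 8.88 FPKM after and 2.38 to 4.61 before. Cyclin-A2 was at 0.08 to 0.41 after and 0.44 to 0.82 before, and cyclin-B2 at 2.18 to 3.43 after and 3.72 to 4.11 before. KIF11 and aurora kinase overlapped between the stages. The part of these markers in the UHRF1 values was not tested.

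The HECT and TRIM families of E3 ligases gave no call, where 8.64% of all features were called. The 26 HECT features, which pass ubiquitin through a cysteine of their own, had a median difference of 0.07, with 16 positive, and the sign of that median turned without before replicate 2 (-0.01). HUWE1, the giant HECT ligase with the highest level among them, was at 22.7 ± 3.03 FPKM after and 22.8 ± 6.97 before in its main feature (0.03, adjusted p = 0.962). The 29 features of the TRIM family, many of whose members act in antiviral defence, had a median of -0.35, with 22 negative, and between 19 and 22 were negative with every other scaling or library set tried. Of these, 19 were described as TRIM25-like, a name under which close relatives may share reads, so single features are uncertain. A negative TRIM25-like feature was kept only through the libraries before, and a positive TRIM25-like and a positive TRIM39-like feature only through those after. Of the 8 features of MYCBP2, a very large RING ligase known from nerve cells, 7 were negative, 1 of them kept only through the libraries before, and without after replicate 1 or before replicate 3 only 4 were negative. The most abundant was level, at 43.4 ± 3.92 FPKM after and 46 ± 18.9 before. STUB1, the ligase that works with heat shock chaperones, was level at 6.16 ± 0.35 after and 6.19 ± 1.42 before.

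Of 41 F-box features 1 passed, and it was lower. FBXL5, the iron-sensing receptor that sends iron regulatory protein IRP2 to degradation, had 8.35, 8.4 and 8.0 FPKM after and 18, 15.4 and 20.4 FPKM before. The 3 libraries after were nearly equal, with an SD of 0.218 FPKM, and lay under all 3 before (-1.03 ± 0.193, limma adjusted p = 0.027). A second feature with this name overlapped, with 8.06, 6.33 and 7.05 FPKM after and 9.22, 5.06 and 9.3 before (-0.08), and the sum of both was not called (adjusted p = 0.0852). FBXO7, a receptor tied to the removal of mitochondria, had 1.56, 2.22 and 2.91 FPKM after and 5.79, 4.91 and 5.65 before (-1.02 ± 0.25, adjusted p = 0.0541).

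Other F-box features lay on both sides without passing. FBXO9, tied in mammals to TOR signalling, had 18.5, 13.8 and 14.1 FPKM after and 9.22, 8.63 and 6.14 before (0.88, adjusted p = 0.0683), and its second feature, named after its values were seen, lay the same way (0.94, adjusted p = 0.0531). Summed, they were at 19.9 ± 3.32 FPKM after and 9.83 ± 1.82 before, past the threshold with an adjusted p of 0.0498. FBXO46, the most abundant F-box feature, had 16.9, 25.8 and 25.5 FPKM after and 30.9, 37.5 and 51 before and lay the other way (-0.78, adjusted p = 0.12). FBXW7, the receptor for cyclin E, MYC and nuclear SREBP in mammals, was low, with 1.48, 1.79 and 1.19 FPKM after and 1.23, 0.56 and 1.63 before, and overlapped (0.24, adjusted p = 0.651).

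UCHL5, a deubiquitinase that trims chains at the proteasome, had the largest difference among the called members on the log2(FPKM + 1) scale, while with a pseudocount of 0.1 that of CYLD was larger (-4.50, against 2.22 for UCHL5). It had 10.45, 11.6 and 13.5 FPKM after and 2.44, 2.04 and 2.97 FPKM before. Every library after stood far above every library before, and the mean was 4.77 times that before (1.88 ± 0.224, limma adjusted p = 0.00879). USP5, which takes apart free ubiquitin chains and was the most abundant deubiquitinase feature, had 30.9, 38.6 and 32.5 FPKM after and 23.6, 23.7 and 31.3 before (0.37, adjusted p = 0.294).

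CYLD, which cuts linear chains and those of lysine-63 type in NF-kappa-B signalling, had 4 features, of which 1 was lower. This one was listed at 0, 0.01 and 0 FPKM after and at 2.24, 1.78 and 2.8 FPKM before (-1.69 ± 0.248, limma adjusted p = 0.0149), and it was kept only through the libraries before. The most abundant CYLD feature had 1.85, 1.77 and 2.07 FPKM after and 2.76, 2.63 and 3.22 before (-0.42, adjusted p = 0.293), 1 of the 4 was positive (0.71), and their sum was 5.93 ± 0.68 FPKM after and 9.17 ± 1.14 before (adjusted p = 0.151).

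UCHL1, a deubiquitinase best known from nerve and endocrine cells, differed between libraries of 1 stage. It had 0.84, 1.49 and 0.43 FPKM after and 12, 0.87 and 14.9 before, so that before replicate 2 lay within the range after and the other libraries before were far above it (-1.96 ± 0.806, adjusted p = 0.18). Without before replicate 2 the adjusted p was 0.0252. USP48, a nuclear deubiquitinase of high level here, was lower in every library after in both features, with 12.6, 15 and 13.4 FPKM after and 21.1, 16.3 and 30.7 before in the more abundant (-0.65, adjusted p = 0.173) and 8.54, 10.3 and 9.91 after and 15.6, 14.7 and 21.8 before in the other (-0.78, adjusted p = 0.0793). USP7, a stabiliser of MDM2, was at 5.69 ± 0.631 FPKM after and 3.96 ± 1.25 before, USP9X at 4.92 ± 0.539 after and 3.54 ± 0.678 before, USP4 at 16.5 ± 2.58 after and 17.1 ± 4.04 before, and BAP1, a nuclear deubiquitinase of histone H2A, at 5.1 ± 0.348 after and 5.37 ± 1.01 before. None of these 4 passed, with adjusted p from 0.339 to 0.945.

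Members with several features were compared within their names. Of the 52 names with at least 2 kept features, 30 had differences of 1 sign, 4 had a call, and none had more than 1. MKRN1, UHRF1, UHRF2, FBXO9 and USP48 had features of 1 sign, and FBXL5 and RNF139 had 1 feature called and another that overlapped. Features of a name may be pieces of 1 transcript, isoforms or paralogs, which the files do not tell apart. When features were summed by name, 5 of the 179 names were higher, UBE2D4, RBX1, RNF185, FBXO9 and UCHL5. Lower were 6 names, CHFR, MKRN1, MKRN2, PELI1, RNF180 and UHRF2. In that fit 8.7% of all features tested were called.

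**Figure D5:**
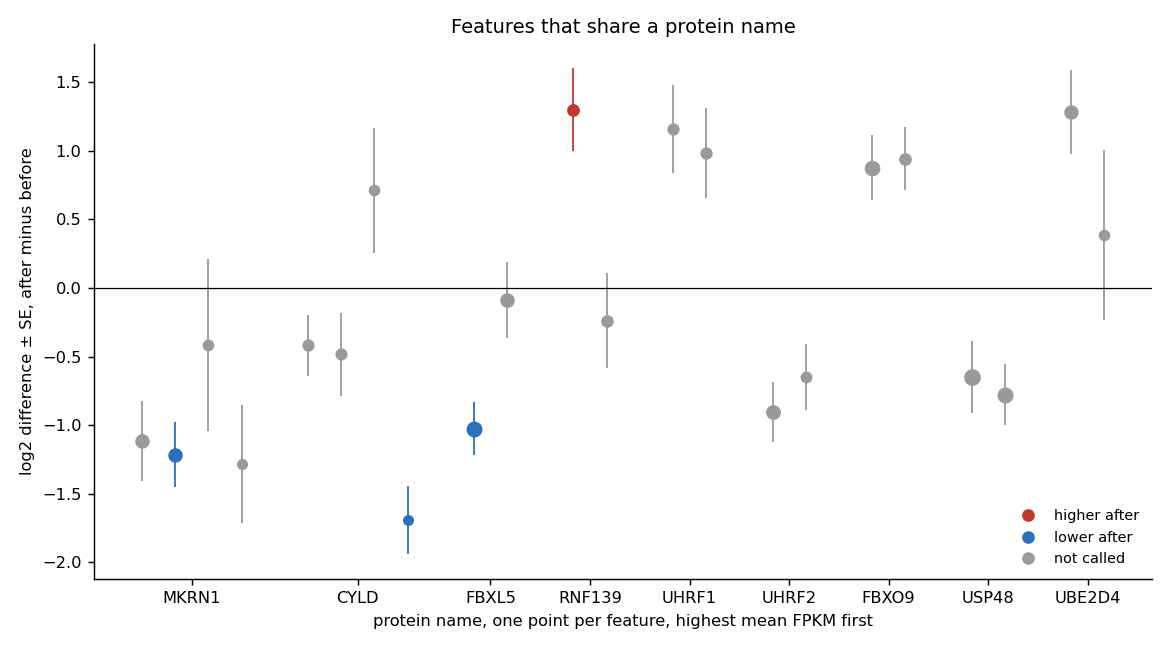
Log2 difference, after minus before, with its SE (vertical axis) for each feature of 9 protein names with several features, the most abundant first, with larger points for higher mean FPKM. The 2 features of UHRF1 lie above 0 and those of UHRF2 below it, the 4 of MKRN1 all lie below it, and RNF139, FBXL5 and CYLD each have 1 called feature beside others that were not called.

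Other genes of the pathway were counted from a list of protein names outside the members. Of 158 features 6 were higher and 9 were lower, 9.49% against 8.64% of all features tested and 9.69% of those with a protein description. By direction, 3.8% were higher, against 4.64% of all features and 6.31% of the described ones. Lower were 5.7%, against 4.0% and 3.38%. The median difference was -0.11. The anaphase-promoting complex, the ligase of mitotic exit, had none of 8 features called. The 18 features of kelch-like proteins, receptors of CUL3 ligases, had 1 lower, where 4.0% of all features were. This was kelch-like protein 24, with 0.15, 0.050 and 0 FPKM after and 1.57, 1.09 and 1.44 before, which was kept only through the libraries before and was called in 0 of the 6 fits without a library. Among the 16 features of SOCS box proteins, receptors for CUL2 and CUL5 ligases, 2 were lower, where 4.0% of all features were. Both were described as SPSB3-like, a name that other features of the 16 carried without a call. The more abundant had 4.28, 3.98 and 1.06 FPKM after and 48.3, 20.6 and 48.2 before (-3.31 ± 0.488, limma adjusted p = 0.0153). RING finger protein 121 and the deubiquitinase OTUD6B were higher, OTUD6B with 12, 15.1 and 13.8 FPKM after and 6.75, 6.22 and 6.09 before (adjusted p = 0.0303). RING finger protein 115 and PCGF1, a subunit of a polycomb ligase, were lower, PCGF1 with 4.35, 5.95 and 4.75 FPKM after and 12.5, 12.4 and 16.5 before (adjusted p = 0.0221). OTUD6B and PCGF1 were called in 0 of the 6 fits without a library, RING finger proteins 121 and 115 in 1 each and the more abundant SPSB3-like feature in 4.

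Some features of the ubiquitin genes themselves were among the most abundant of the pathway list, below RING finger protein 222. Of their 11 polyubiquitin features 2 were lower, where 4.0% of all features were. A polyubiquitin-C feature had 222, 184 and 195 FPKM after and 344, 313 and 449 before (-0.86 ± 0.182, limma adjusted p = 0.0364), and a polyubiquitin-B feature 325, 292 and 299.6 after and 623, 436 and 517 before (-0.77 ± 0.168, adjusted p = 0.0407). Both calls were lost whichever library was left out, without a filter and with variances moderated without a trend. Of the 11 differences 7 were negative and 4 positive, and no positive one was called. Another polyubiquitin-C feature was higher in every library after, at 61.95, 12.9 and 15.3 FPKM after and 0, 0 and 9.4 before (3.47 ± 1.03, limma adjusted p = 0.0873). The most abundant polyubiquitin-B feature was at 1067 ± 295 FPKM after and 851 ± 77.2 before (0.29, adjusted p = 0.446). The most abundant of the 11, polyubiquitin-A, was not called, at 2164 ± 222 FPKM after and 2359 ± 106 before. Summed over all 11, the level was 4325 ± 604 FPKM after and 4656 ± 308 before (SD, n = 3 each), and the stages overlapped. Ubiquitin genes are tandem repeats of nearly the same sequence, so reads may be shared among these features and the split between them is uncertain.

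The related modifier SUMO is attached by enzymes of its own, and 3 of its 8 features were higher, where 4.64% of all features were. Both features of SUMO-activating enzyme subunit 1, a subunit of the SUMO E1, passed, the more abundant with 7.09, 9.46 and 9.2 FPKM after and 0.86, 1.75 and 1.64 before (2.0 ± 0.261, limma adjusted p = 0.0111). The other had 4.33, 5.11 and 3.05 FPKM after and 0.16, 1.08 and 1.02 before (1.59 ± 0.332, adjusted p = 0.0357). SUMO3 had 60.7, 71.2 and 68.8 FPKM after and 31.8, 27.2 and 34.9 before (1.08 ± 0.175, adjusted p = 0.019). In all 3 the stages did not overlap, and leaving out 1 library kept the call in 4, 0 and 2 of 6 fits. None of 4 sentrin-specific proteases, which remove SUMO or NEDD8, was called.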

How the data were processed

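Liver RNA of 6 tadpole libraries was measured by poly-A selected, paired-end Illumina sequencing, per the labels' protocols. The authors deposited FPKM per transcript cluster with protein descriptions, per the file headers. Not given in the sources used here are the assembler, the aligner, the program behind the FPKM and the read totals, so depth and counting error are unknown. Features needed at least 1 FPKM in at least 3 libraries. The test of after against before used log2(FPKM + 1) and the moderated linear model of limma 3.58.1 (R 4.3.3; trended eBayes, no covariates, two-sided), with Benjamini-Hochberg adjustment over 40548 features and a threshold of 0.05. The fit was tested on simulated data. Tables were made with Python 3.11.15 and pandas 2.3.3. A feature joined the first class it matched, and symbols were read from the descriptions. In 4 members these named only rodents or humans, or no vertebrate. The rule for named features took up to 5 called per class and direction, proteins chosen whatever their result, and the 5 most abundant per class. UBE2D4, UBE2S, UHRF1, UHRF2 and the less abundant features of a name were added after their values were seen. Members and lists were chosen with earlier results of these data known. Alternatives covered pseudocount, filter, scaling, moderation, summing by name, origin of the description, replicate block and leaving out each library. Stages of 3 libraries were not tested for outlying libraries. No nucleotide or protein sequences were used here. Results for some member genes are not reported here.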

Additional observations from a re-analysis of the deposited data

How the results depend on the processing

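Depth was unknown, so no counting interval could be given, and low features are the least precise. The counts of calls moved with the processing, and the cause was not tested. With a pseudocount of 0.1, 2 members were higher, and 5 E3 ligases were called, where 6.46% of all features were called. Without a filter, 1 member was higher and 3 lower, with 2 E3 ligases, 1 deubiquitinase and 1 lower feature of the pathway list called. In that fit 0.841% of all features were called. A filter at 5 FPKM gave 1 E2 enzyme and 2 F-box calls. It left 89 members, of which 14 were called, where 22.5% of all features tested were called. Median-of-ratios factors gave 12 higher members, and calls for 2 E2 enzymes, 13 E3 ligases, 3 F-box proteins and 1 cullin, with 15 lower pathway features. Quantile normalization gave 12 higher and 11 lower members, and calls for 1 E2 enzyme, 14 E3 ligases, 3 F-box proteins, 1 cullin and 4 deubiquitinases, with 15 lower pathway features. Rescaling without pancreatic enzymes gave 7 higher members, 1 E2 call and 3 F-box calls. With 1 library left out, the ranges were 1 to 2 higher and 0 to 5 lower members, 0 to 3 E3 ligases, 0 to 1 E2 enzymes, 0 F-box proteins, 1 to 3 deubiquitinases, and 0 to 5 higher and 0 to 8 lower pathway features. Summing by name gave 5 higher and 6 lower names of 179, with 8.7% of all features called. The replicate number as a block left 0 members higher, 0 lower and 0 called in any class, and 0 pathway features, with 0.836% of all features called. Libraries of the same number did not vary together (r across features of -0.0049, -0.0387 and -0.0876). With 3 libraries per stage this cannot tell whether they share more than a number. No called feature turned its sign, but 22 of the 72 named features did, none of them called and none with a difference over 0.297 as reported. The values that turned were 0.026 for MARCH6, 0.074 for MYCBP2, 0.015 for BAP1 and 0.042 for USP4 with median-of-ratios factors, -0.12 for UBE2A and -0.0797 for HUWE1 with quantile normalization and 0.018 for MYCBP2 without pancreatic enzymes. With 1 library left out the log2 differences of these 22 ran, for UBE2A from -0.0705 to 0.087, UBE2C from -0.22 to 0.40, UBE2K from -0.031 to 0.22, UBE2R2 from -0.10 to 0.21, HERC2 from -0.011 to 0.26, HUWE1 from -0.19 to 0.24, MARCH6 from -0.089 to 0.019, MYCBP2 (feature 1) from -0.31 to 0.29, MYCBP2 (feature 2) from -0.41 to 0.22, NEDD4L from -0.076 to 0.46, SMURF2 from -0.24 to 0.18, STUB1 from -0.10 to 0.17, SYVN1 from -0.33 to 0.0077, FBXL5 (feature 2) from -0.34 to 0.044, FBXW9 from -0.11 to 0.15, CACUL1 from -0.55 to 0.041, CUL4A from -0.60 to 0.10, CUL4B from -0.38 to 0.068, CUL5 from -0.0203 to 0.31, BAP1 from -0.15 to 0.069, USP22 from -0.45 to 0.015 and USP4 from -0.16 to 0.14. Over the 72 features and all alternatives, 898 values kept their side of the threshold, 74 lost it and 8 gained it.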

Other observations

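Among proteins with a tripartite motif that carry no ligase in their description, 2 of 23 features were lower after fat accumulation, where 4.0% of all features were. Both were described as TRIM7-like, as were most of the 23. TRIM7 is known in mammals as a ligase that binds glycogenin. The more abundant had 8.63, 6.5 and 4.38 FPKM after and 28.2, 21.98 and 27.5 FPKM before (-1.87 ± 0.268 on the log2 scale, limma adjusted p = 0.0139), without overlap, and it was called in 4 of 6 fits without a library. The other had 0.49, 0.34 and 0.84 FPKM after and 2.54, 1.86 and 3.19 before, was kept only through the libraries before, and was called in 0 of these 6 fits and not with a pseudocount of 0.1. The remaining TRIM7-like features were not called. Most of these were negative, while 1 was at 8.97 ± 2.47 FPKM after and 7.93 ± 3.01 before (0.18). Another was close to level, at 6.86 ± 0.709 after and 7.2 ± 0.503 before (-0.06). The median over the 23 features was -0.37. Features with this name may share reads, so the level of a single one is uncertain.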
